A study of Homo sapiens with 4 samples.

Results

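TXNDC9, the gene targeted for knockout, and 5 protein-coding genes near it on chromosome 2 formed the group of 6 genes described here, TXNDC9, EIF5B, REV1, MITD1, LIPT1 and TSGA10. They were taken by name from the deposited expression table, in which they were 6 of 57979 genes with values, and all 6 passed the filter on low values (an average above 1 FPKM). The study sequenced polyadenylated RNA in 4 libraries labelled HepG2, a human liver cancer cell line, of which 2 were wild type and 2 TXNDC9 knockout. All cells were grown in DMEM with serum, and the knockout was made with CRISPR-Cas9 from a lentiviral plasmid that carries Cas9 and a guide RNA. The study's methods give a pair of guides aimed at TXNDC9, but which of them was used for these libraries, and whether the knockout cells were 1 clone or a mixed population, were not given in the sources used here. For an immunoblot of HepG2 cells the study describes sorted infected cells with vector alone as the control, and it does not say whether the RNA came from the same cells. The comparison asks how RNA levels differ once TXNDC9 has been targeted. Values were FPKM, the fragments mapped to a gene scaled to the length of its transcript and to the size of the library. How library size was set was not given in the sources used here. FPKM sums over all genes were 805816 and 971102 in the wild-type libraries and 535973 and 568279.5 in the knockout libraries. No read counts could be recovered from the values, so the depth of each library is unknown and no counting error is given. The labels do not say whether libraries came from separate cultures, so the spread between replicates may be technical.

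The labelled cell type was checked against its defining markers. ALB (albumin), AFP (alpha-fetoprotein), TTR, APOA1, FGB, SERPINA1 and HNF4A, 7 genes that HepG2 cells are known to express, were all under 1 FPKM in every library, and the highest value was 0.449 FPKM, for AFP in wild-type library 2. Their summed level was 0.351 and 0.716 FPKM in wild type, against 0.0439 and 0.121 FPKM in knockout, and APOA1 was listed at 0 in all 4 libraries. These markers therefore went against the label, and the libraries are called below by their genotype only. Of 4 fibroblast markers (COL1A1, COL3A1, DCN and LUM), 3 passed the filter on low values and 0 were called changed, and their summed level was 53.0 and 48.8 FPKM in wild type, against 35.4 and 31.8 FPKM in knockout. The 3 endothelial markers summed to 0.803 and 1.22 FPKM in wild type, against 4.41 and 3.42 FPKM in knockout, most of it from CDH5, which was higher in knockout (log2 fold change 1.92, limma adjusted p = 0.00195). The part of these differences in the results below was not tested.

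The 6 genes are neighbours in position and not in function. TXNDC9 is a phosducin-like protein with a thioredoxin fold that binds the TRiC chaperonin, the ring-shaped complex that folds actin and tubulin. EIF5B is the GTPase that joins the ribosomal subunits at the end of translation initiation. REV1 is a DNA polymerase of the Y family that inserts cytosine opposite damaged bases and recruits other polymerases for translesion synthesis. MITD1 binds ESCRT-III proteins at the midbody and takes part in the final separation of dividing cells. LIPT1 is the mitochondrial enzyme that transfers lipoic acid to the E2 subunits of 2-oxoacid dehydrogenases. TSGA10 is a testis-enriched protein of the sperm tail and its junction with the head. Genes that start close together on opposite strands can share a stretch of promoter, and genes that end in one another can share reads when a library does not keep the strand.

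In hg38 with GENCODE release 44, TXNDC9 (ENSG00000115514) lies on chromosome 2 from 99318982 to 99340702 on the minus strand, and EIF5B (ENSG00000158417) from 99337371 to 99401326 on the plus strand. The starts of their canonical transcripts point away from each other with 1055 bases between them, while longer TXNDC9 transcripts make the annotated loci overlap by 3332 bases. REV1 (ENSG00000135945) lies from 99400475 to 99490035 on the minus strand and ends against EIF5B, and the loci share 852 bases. On the other side of TXNDC9, TSGA10 (ENSG00000135951, from 98997261 to 99154964, minus strand) and LIPT1 (ENSG00000144182, from 99154955 to 99163157, plus strand) have 24 bases between the starts of their canonical transcripts, which point away from each other. LIPT1 ends against MITD1 (ENSG00000158411, from 99161427 to 99181058, minus strand), whose start has 125 bases between it and that of MRPL30, a mitochondrial ribosomal protein gene. By position, TXNDC9 and EIF5B, and LIPT1 and TSGA10, are the members that start side by side. EIF5B and REV1, and LIPT1 and MITD1, are those that end in each other. The 6 are not an unbroken run, since MRPL30, LYG2 and LYG1 lie between MITD1 and TXNDC9, and C2orf15 lies within TSGA10 on the opposite strand.

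The stretches just upstream of TXNDC9, EIF5B and REV1 and the stretch between MITD1 and MRPL30 are shown because these are the places where the genes start. They were read from hg38 from 5′ to 3′ on the strand given with each, with exons of coding transcripts left out, and capitals mark GC boxes (GGGCGG on either strand) and the E-box (CACGTG).
TXNDC9, chr2:99336386-99336583, minus strand: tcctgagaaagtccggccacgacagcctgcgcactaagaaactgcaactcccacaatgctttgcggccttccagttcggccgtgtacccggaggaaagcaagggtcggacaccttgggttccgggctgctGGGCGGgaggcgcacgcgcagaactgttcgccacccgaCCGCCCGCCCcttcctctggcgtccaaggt
EIF5B, chr2:99337139-99337370, plus strand: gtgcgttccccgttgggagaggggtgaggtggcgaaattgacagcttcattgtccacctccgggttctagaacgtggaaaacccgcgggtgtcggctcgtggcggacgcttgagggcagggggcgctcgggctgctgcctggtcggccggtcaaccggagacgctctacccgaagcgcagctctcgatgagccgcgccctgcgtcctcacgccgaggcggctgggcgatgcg
REV1, chr2:99490036-99490267, minus strand: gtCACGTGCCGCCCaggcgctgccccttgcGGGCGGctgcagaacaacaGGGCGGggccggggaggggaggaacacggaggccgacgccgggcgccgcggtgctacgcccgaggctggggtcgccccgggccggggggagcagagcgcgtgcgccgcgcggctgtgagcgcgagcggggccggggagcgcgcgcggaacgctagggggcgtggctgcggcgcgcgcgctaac
MITD1 and MRPL30, chr2:99181059-99181183, plus strand: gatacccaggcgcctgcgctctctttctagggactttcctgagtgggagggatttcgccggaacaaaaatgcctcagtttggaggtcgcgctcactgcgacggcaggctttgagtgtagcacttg
GC content was 64.6% upstream of TXNDC9, with 18 CpG dinucleotides in 198 bases, 68.1% upstream of EIF5B with 28 in 232 bases, and 80.6% upstream of REV1 with 40 in 232 bases. Between MITD1 and MRPL30 it was 56.8%, with 8 CpG dinucleotides in 125 bases. The TXNDC9 stretch is also covered by a TXNDC9 transcript with no defined coding sequence.

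A search of the RefSeq promoter windows (GRCh38.p14, 250 bases before to 50 after each start, 300 bases in all) for 7 motifs on both strands described all 6 members beside 35116 windows. The GC box was in the windows of TXNDC9, REV1, LIPT1 and TSGA10, and in 45.0% of all windows. The CCAAT box (CCAAT) was in that of TXNDC9 alone among the members, 31 bases before its start, and in 34.6% of all windows. The E-box (CACGTG) was in that of REV1 alone and in 7.26% of all windows, and an ETS motif (CCGGAAG) was in those of MITD1 and TSGA10 and in 10.3% of all windows. The AP-1 motif (TGANTCA), the CRE (TGACGTCA) and a forkhead motif (TGTTTAC) were in 0 of the 6 member windows, and in 7.71%, 1.85% and 3.42% of all windows. A match is a run of letters and no measure of binding, and the absence of one covers only these windows.

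The comparison of knockout with wild type was fitted for all 13246 genes with an average FPKM above 1, by limma on log2(FPKM + 0.1), and fold changes below are on that scale, knockout over wild type. Calls required an adjusted p under 0.01 (Benjamini-Hochberg over all 13246 genes) together with a fold change of at least 2. By this rule 2021 genes, 15.3% of those tested, were called lower in knockout and 1885, or 14.2%, were called higher. Among the 6 members, 1 was called lower and 0 were called higher, so the count of members called lower was near the share of all genes. Both knockout values lay below both wild-type values for 5 members and above them for 1, beside 45.9% and 40.1% of all tested genes. An adjusted p under 0.01 at any fold was reached by 2 members and 50.8% of all genes, and one under 0.05 by 6 members and 68.2% of all genes. The median change was −0.61 over the 6 members and −0.09 over all tested genes. The calls below were lost without knockout library 1 and without knockout library 2. Such a fit takes its residual spread from the wild-type pair alone. The lost calls therefore cannot be read as dependence on the values of 1 knockout library. Rescaling each library to TPM moved the median of all genes to 0.59 and centring each library on its median gene moved it to −0.23.

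TXNDC9, the targeted gene, was present in all 4 libraries. It stood at 35.1 and 37.3 FPKM in wild type, against 21.9 and 27.6 FPKM in knockout. The groups did not overlap, and the knockout libraries differed more from each other than the wild-type libraries did. The means were 36.2 ± 1.58 and 24.7 ± 4.04 FPKM (SD, n = 2 each), so the knockout mean was 68.4% of the wild-type mean. The log2 fold change was −0.55 (SE 0.14, 95% interval −0.90 to −0.21, limma adjusted p = 0.0145), which did not pass the threshold. Relative to the median gene it was −0.47, and 32.3% of tested genes had a lower value. After rescaling to TPM the log2 fold change was 0.12 and thus in the other direction, with 32.6% of genes below it. Without knockout library 1 the log2 fold change on the FPKM scale was −0.39. An FPKM value counts edited and unedited transcripts alike and gives no measure of the protein. In bulk RNA, fewer cells with a transcript and less of it in each cell cannot be told apart.

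The canonical TXNDC9 transcript has 5 exons and 1508 bases, and its coding sequence of 678 bases starts in exon 2 at position 99333210. The coding part of exon 2 is shown because it holds the start codon, given in capitals, and 27.9% of the coding bases. It is the first exon with coding sequence.
TXNDC9 exon 2, chr2:99333022-99333210, minus strand: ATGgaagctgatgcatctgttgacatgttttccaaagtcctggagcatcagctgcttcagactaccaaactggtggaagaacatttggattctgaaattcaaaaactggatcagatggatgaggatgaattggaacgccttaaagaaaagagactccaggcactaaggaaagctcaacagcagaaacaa
TXNDC9 shares 74 exon bases with a gene on the opposite strand (ENSG00000241962), which was between 0.110 and 0.404 FPKM in the 4 libraries.

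EIF5B, the ribosomal subunit joining factor whose start lies beside that of TXNDC9, was the 1 member called changed, and it fell. It stood at 56.6 and 83.6 FPKM in wild type, against 32.8 and 35.4 FPKM in knockout. The groups did not overlap, and wild-type library 2 was far above wild-type library 1. The means were 70.1 ± 19.1 and 34.1 ± 1.87 FPKM (SD, n = 2 each), the knockout mean being 48.7% of the wild-type mean. The log2 fold change was −1.01 (SE 0.20, 95% interval −1.49 to −0.53, limma adjusted p = 0.00557), and 16.9% of tested genes had a lower value. The call was lost without wild-type library 2 and without either knockout library. Without wild-type library 2 the log2 fold change was −0.73, under the fold threshold. Without knockout library 1 or 2 it was −0.95 or −1.07, in fits whose residual spread came from the wild-type pair alone. After rescaling to TPM it was −0.33 (adjusted p = 0.0546), and after a correction for transcript length and GC content −1.84 (adjusted p = 0.00175). Its canonical transcript has 24 exons and 5741 bases, of which 852, or 14.8%, overlap REV1 exons on the opposite strand.

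**Figure D1:**
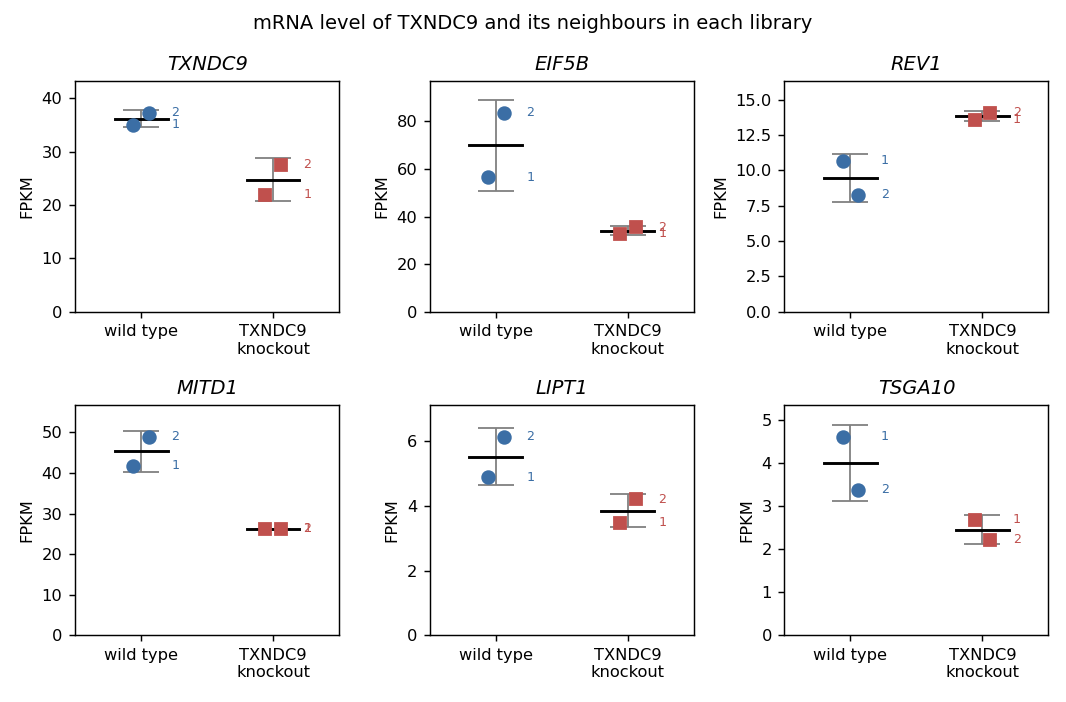
FPKM of each of the 6 members in the 2 wild-type and the 2 knockout libraries, with 1 panel per gene, numbered points for libraries, a black line for the mean and grey bars for the SD. In each panel the 2 groups are apart, with REV1 alone higher in knockout on the FPKM scale, and EIF5B has the widest gap between wild-type libraries (56.6 and 83.6 FPKM).

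REV1, the translesion polymerase that ends against EIF5B, was the only member with higher FPKM in knockout, although after rescaling to TPM the means of TXNDC9 and LIPT1 were higher in knockout too. It stood at 10.7 and 8.28 FPKM in wild type, against 13.6 and 14.1 FPKM in knockout. The groups did not overlap, and the knockout libraries were close to each other. The means were 9.48 ± 1.70 and 13.8 ± 0.339 FPKM (SD, n = 2 each), or 146% of wild type. The log2 fold change was 0.55 (SE 0.15, 95% interval 0.19 to 0.92, limma adjusted p = 0.0181), which was not called. The value depended on the processing. After rescaling to TPM it was 1.23 and called (adjusted p = 0.00222), beside 4380 of 13246 genes called higher in TPM. Relative to the median gene it was 0.64 both as deposited and in TPM. Its place among the tested genes also stayed, at percentile 72.1 as deposited and 72.2 in TPM. After the length and GC correction the log2 fold change was −0.012 (adjusted p = 0.948), just on the other side of 0. The canonical REV1 transcript has 4731 bases in 23 exons, of which 850, or 18.0%, overlap EIF5B exons. Whether the authors counted reads by strand is not stated, and without strand the reads of these bases cannot be told apart between the 2 genes.

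MITD1, which binds ESCRT-III at the midbody, stood at 41.8 and 49.0 FPKM in wild type, against 26.2 and 26.3 FPKM in knockout. The groups did not overlap and the knockout libraries were nearly equal. The means were 45.4 ± 5.06 and 26.3 ± 0.0156 FPKM (SD, n = 2 each), the latter 57.8% of the former. The log2 fold change was −0.78 (SE 0.12, 95% interval −1.07 to −0.50, limma adjusted p = 0.00214), the smallest adjusted p of the 6 members, but the fold was under 2 and the gene was not called. After rescaling to TPM it was −0.10 (adjusted p = 0.419).

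LIPT1, the lipoyltransferase, and TSGA10, the sperm tail protein, start beside each other and were the members with the lowest FPKM. LIPT1 stood at 4.89 and 6.13 FPKM in wild type, against 3.48 and 4.20 FPKM in knockout. TSGA10 stood at 4.62 and 3.38 FPKM in wild type, against 2.69 and 2.22 FPKM in knockout. In both genes the groups did not overlap, but the wild-type library with the higher value was library 2 for LIPT1 and library 1 for TSGA10. For LIPT1 the means were 5.51 ± 0.883 and 3.84 ± 0.508 FPKM (SD, n = 2 each) and the log2 fold change was −0.51 (SE 0.18, limma adjusted p = 0.0444). For TSGA10 the means were 4.0 ± 0.876 and 2.46 ± 0.331 FPKM (SD, n = 2 each) and the log2 fold change was −0.67 (SE 0.21, limma adjusted p = 0.0336). Neither was called. After rescaling to TPM LIPT1 was at 0.16, in the other direction, and TSGA10 at −0.01, and after the length and GC correction TSGA10 was at −1.20 and called (adjusted p = 0.00866). LIPT1's transcript of 1266 bases shares 262 bases, or 20.7%, with MITD1 exons on the opposite strand. The canonical MITD1 transcript shares 0 bases with exons on the opposite strand, so those 262 belong to other MITD1 transcripts. How much of the MITD1 level comes from those transcripts is unknown. A further 54 bases are shared with a gene on the same strand (ENSG00000273155), which was between 0.274 and 0.578 FPKM. MITD1 had the higher mean in wild type (45.4 against 5.51 FPKM for LIPT1). Without strand, the reads of the bases shared with MITD1 cannot be told apart, and their part in the LIPT1 values was not tested.

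Ordered by their mean in wild type, on the FPKM scale, which is per length, the members ran from EIF5B (70.1) through MITD1 (45.4), TXNDC9 (36.2), REV1 (9.48) and LIPT1 (5.51) to TSGA10 (4.0). In wild type the values of LIPT1 (4.89 and 6.13) and TSGA10 (4.62 and 3.38) did not overlap, with the closest pair in library 1, and MITD1 (41.8 and 49.0) lay above TXNDC9 (35.1 and 37.3) in both libraries. In knockout the order was EIF5B (34.1), MITD1 (26.3), TXNDC9 (24.7), REV1 (13.8), LIPT1 (3.84) and TSGA10 (2.46). There TXNDC9 in library 2 (27.6) was above MITD1 in both libraries (26.2 and 26.3) and TXNDC9 in library 1 (21.9) below them, so these neighbours in the order did not differ beyond their spread. TXNDC9 was above 72.2% of tested genes in mean level, EIF5B above 82.3%, MITD1 above 75.7%, REV1 above 48.0%, LIPT1 above 26.3% and TSGA10 above 19.3%.

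**Figure D2:**
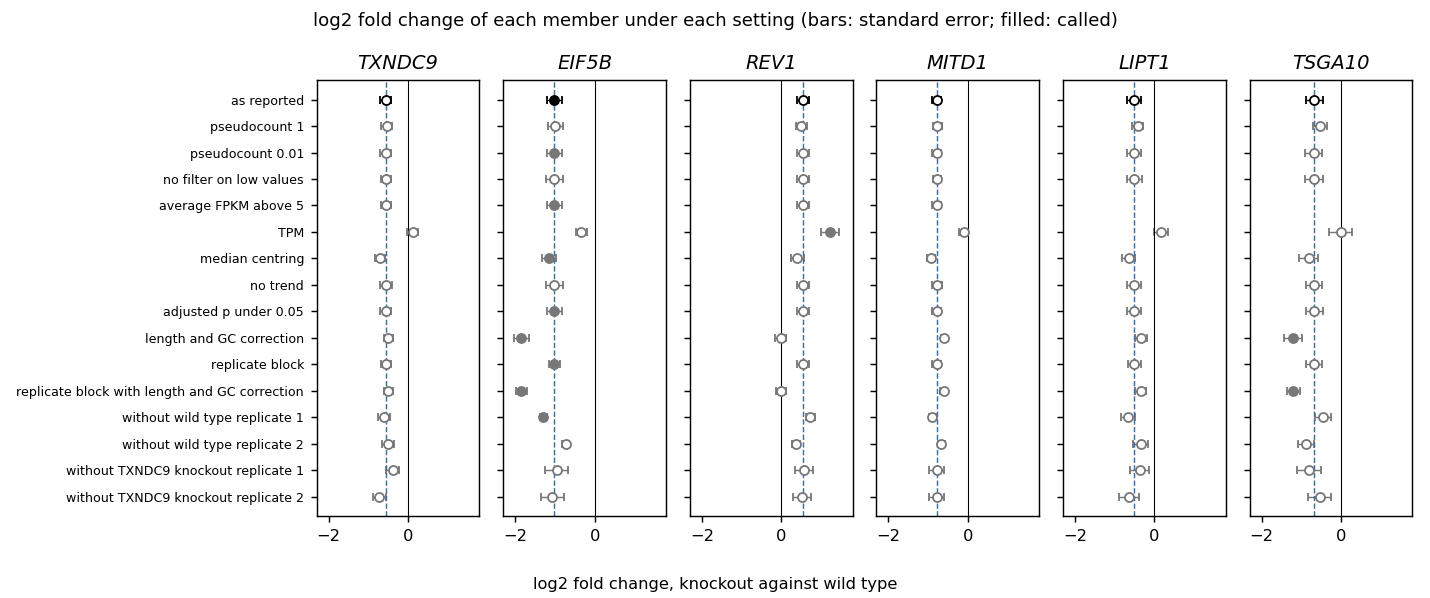
Log2 fold change, knockout against wild type, of each member as reported and under the alternatives, with bars for the standard error, filled points for called values and a dashed line at the reported value. Rescaling to TPM moves all 6 members upwards and puts TXNDC9 (0.12) and LIPT1 (0.16) above 0, while the length and GC correction moves EIF5B to −1.84 and REV1 to −0.012.

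Ratios between neighbours within a library hardly depend on how the libraries were scaled (through the added 0.1 only). With 2 libraries against 2, a two-sided exact permutation test cannot give a p under 0.33. TXNDC9 over EIF5B was at −0.69 and −1.16 in wild type and −0.58 and −0.36 in knockout on the log2 scale, a difference of 0.46 (exact permutation p = 0.33). The ratio was higher in both knockout libraries than in either wild-type library. Leaving out wild-type library 2 moved the difference to 0.22, and leaving out wild-type library 1 moved it to 0.69. EIF5B over REV1 was at 2.39 and 3.32 in wild type and 1.26 and 1.33 in knockout, a difference of −1.56, the largest of the 5 ratios computed (exact permutation p = 0.33). LIPT1 over MITD1 was at −3.07 and −2.98 in wild type and −2.88 and −2.62 in knockout, a difference of 0.28 (exact permutation p = 0.33). LIPT1 shares exon bases with MITD1 transcripts other than the canonical one. For EIF5B and REV1, the canonical transcript of each overlaps exons of the other gene. The part of shared reads in these ratios was not tested. LIPT1 over TSGA10 was at 0.08 and 0.84 in wild type and 0.36 and 0.89 in knockout, where the groups overlapped (difference 0.16, exact permutation p = 0.67). MITD1 over MRPL30 was at 0.18 and 0.14 in wild type and −0.38 and −0.37 in knockout, a difference of −0.53 (exact permutation p = 0.33). In each of the 4 ratios whose groups did not overlap, p was the smallest this design allows, and after Benjamini-Hochberg adjustment over the 5 ratios these exact p-values were 0.417. After the length and GC correction, TXNDC9 over EIF5B differed by 1.35 and MITD1 over MRPL30 by 0.21, the latter in the other direction. LIPT1 over TSGA10 then stood at −0.19 and 0.42 in wild type, against 0.71 and 1.24 in knockout, groups that did not overlap (difference 0.86, exact permutation p = 0.33). As deposited, its difference was −0.22 without wild-type library 1 and −0.10 without knockout library 2, so that its direction rested on single libraries.

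**Figure D3:**
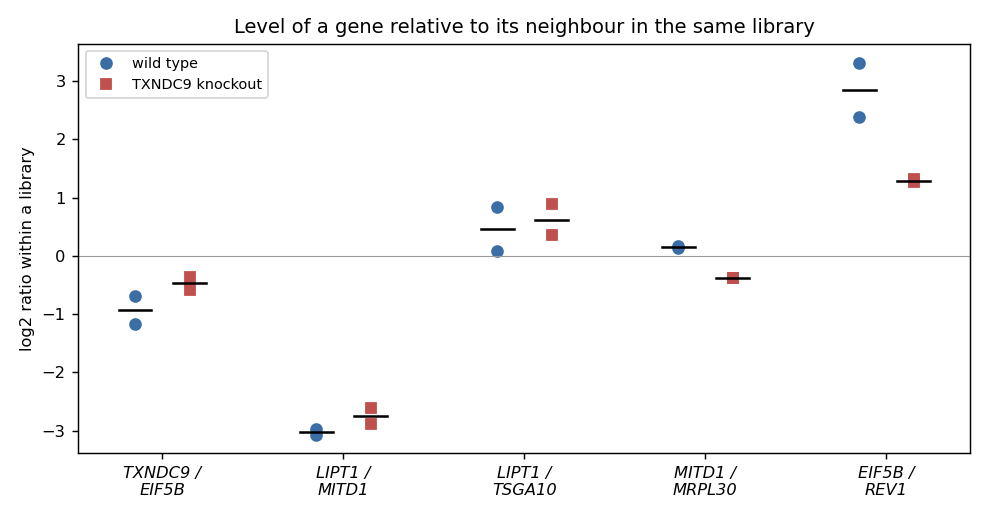
Log2 ratio of FPKM + 0.1 between neighbouring genes in each of the 4 libraries, with blue points for wild type, red squares for knockout and a line at each mean. In the values as deposited the groups are apart in 4 of the 5 ratios and overlap in LIPT1 over TSGA10, and EIF5B over REV1 has the widest gap.

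A list of other genes on either side of the members was written with results of these data known, so that the members could be set beside a wider stretch. It held 18 names, of which CRACDL and KIAA1211L are the newer and the older name of the same gene. The table had all 17 genes, of which 12 passed the filter on low values, and 7 of the 12 had a lower and 5 a higher mean in knockout. Only INPP4A, a phosphoinositide phosphatase at −891 kb from the TXNDC9 start, on the TSGA10 side, was called, and it rose, from 2.71 and 2.95 FPKM to 6.57 and 7.39 FPKM (log2 fold change 1.27, limma adjusted p = 9.12e-04). The median change of the 12 was −0.19, beside −0.61 for the members and −0.09 for all tested genes. After rescaling to TPM the median of the 12 was 0.49 with 5 of them called higher. In TPM the median of all 13246 tested genes was 0.59, and 4380 of them were called higher. LYG1, the nearest of them to TXNDC9 and a lysozyme-like gene, was at 1.07 and 1.59 FPKM in wild type, against 0.351 and 0.623 FPKM in knockout, and was below the filter with LYG2. MRPL30, which starts 125 bases from MITD1, stood at 37.0 and 44.5 FPKM in wild type, against 34.1 and 34.0 FPKM in knockout (log2 fold change −0.25, limma adjusted p = 0.115). The most highly expressed, the ribosomal protein gene RPL31, was at 859 and 1155 FPKM in wild type, against 810 and 888 FPKM in knockout, groups that overlapped (log2 fold change −0.23, limma adjusted p = 0.339).

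PDCL3, a phosducin-like gene like TXNDC9 and 1226.7 kb from its start on the REV1 side, stood at 32.7 and 35.9 FPKM in wild type, against 17.3 and 19.2 FPKM in knockout. Its groups did not overlap, and its log2 fold change of −0.91 (limma adjusted p = 0.00119) was under the fold threshold.

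**Figure D4:**
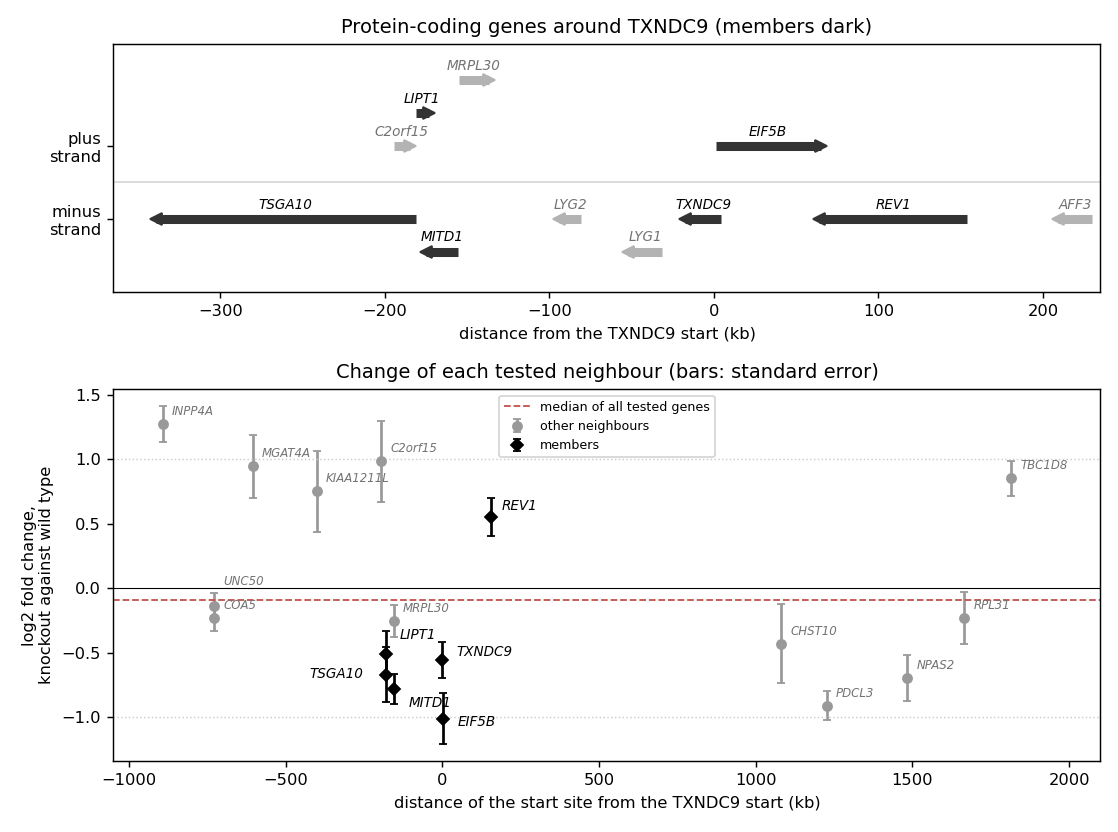
Upper panel, map of protein-coding genes around TXNDC9 with arrows for strand, in kb from the TXNDC9 start; lower panel, log2 fold change with its standard error for the members (black) and other tested neighbours (grey), in kb from the same start. EIF5B is the only member at or past −1, REV1 the only member above 0, and INPP4A the only other neighbour called.

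The genes that share each member's known role were described from lists written with results of these data known. Beside the list counts below, 15.3% of all 13246 tested genes were called lower as deposited and 14.2% higher. In TPM 447 of them were called lower and 4380 higher. After the length and GC correction, 969 of 13112 genes were called lower and 841 higher. Of 5 phosducin-like genes, 3 were tested (PDCL, PDCL3 and TXNDC9) and 0 called, with a median of −0.55 that was 0.12 after rescaling to TPM. PDCL stood at 11.1 and 12.9 FPKM in wild type, against 17.6 and 18.0 FPKM in knockout (log2 fold change 0.56, limma adjusted p = 0.00688), under the fold threshold. Of 9 TRiC genes, partners of the phosducin-like proteins, 8 were tested, of which 1 was called lower and 0 higher (median −0.44, and 0.24 after rescaling to TPM). All 8 means were lower in knockout as deposited, but 2 of 8 were lower after rescaling to TPM. CCT7 was the 1 called, and it fell from 509 and 624 FPKM to 256 and 272 FPKM (log2 fold change −1.10, limma adjusted p = 0.00181). CCT8 was at 389 and 459 FPKM in wild type, against 244 and 260 FPKM in knockout, with a log2 fold change of −0.75 (limma adjusted p = 0.00526), under the fold threshold. After the length and GC correction 0 of the 8 were called.

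Of 10 genes of ribosomal subunit joining, all were tested, 2 were called lower and 1 was called higher (median −0.09, and 0.59 after rescaling to TPM). EIF6, which keeps the large subunit from joining too early, fell with EIF5B, from 232 and 324 FPKM to 119 and 125 FPKM (log2 fold change −1.17, limma adjusted p = 0.00258). EIF5, the factor that triggers GTP hydrolysis on the initiator complex, rose from 57.1 FPKM in each wild-type library to 135 and 138 FPKM (log2 fold change 1.26, limma adjusted p = 5.38e-04). In TPM 0 of the 10 were called lower and 4 higher, and after the length and GC correction 1 was called lower and 0 higher, with EIF6 at −0.35 and EIF5 at 0.49, neither called.

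Of 12 genes of translesion synthesis, all were tested, 1 was called lower and 4 were called higher (median 0.42). In TPM the median was 1.10, and after the length and GC correction it was −0.06 with 0 called, in the other direction. The 4 that rose were the polymerases POLH (log2 fold change 1.11), POLI (1.02) and POLK (2.02) and the ubiquitin ligase RAD18 (1.15). POLK rose from 1.55 FPKM in each wild-type library to 6.54 and 6.66 FPKM. MAD2L2, which links REV1 to polymerase zeta, fell from 80.6 and 95.7 FPKM to 34.3 and 37.1 FPKM (log2 fold change −1.30).

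Of 16 genes of ESCRT-III, VPS4 and their partners, to which MITD1 belongs, all were tested, 3 were called lower and 0 higher (median −0.00, and 0.68 after rescaling to TPM with 0 called lower and 4 higher). The 3 called were the ESCRT-III subunits CHMP2A (log2 fold change −1.45), CHMP4B (−1.38) and CHMP6 (−1.20), which fell. After the length and GC correction 0 of the 16 were called, and these 3 were at −0.69, −0.87 and −0.22. Of 15 genes of protein lipoylation and its substrates, all were tested, 1 was called lower and 1 higher (median 0.03, and −0.11 after median centring). In TPM 0 were called lower and 7 higher (median 0.72), and after the length and GC correction 1 was called lower and 0 higher (median 0.30). LIPT2, which makes the octanoyl intermediate, fell from 2.03 and 2.09 FPKM to 0.806 and 0.760 FPKM (log2 fold change −1.29), and DBT, an E2 subunit that receives lipoate, rose from 1.51 FPKM in both libraries to 6.65 and 6.84 FPKM (log2 fold change 2.09). Of 8 genes of the sperm head and tail junction, 5 were tested, 1 was called lower and 1 higher (median −0.57, and 0.10 after rescaling to TPM). PMFBP1 fell (log2 fold change −1.63) and HOOK1 rose (2.43). PMFBP1 stood at 18.0 and 27.9 FPKM in wild type, against 6.67 and 7.72 FPKM in knockout. HOOK1 stood at 1.01 and 1.12 FPKM in wild type, against 4.16 and 9.02 FPKM in knockout, where the libraries were far apart. Over the neighbourhood and role lists together, 17 genes were called, EIF5B and INPP4A included. Their directions were the same after rescaling to TPM, where 8 of them stayed called, and after the length and GC correction, where 2 did (EIF5B and PMFBP1). Without wild-type library 2 the calls of EIF5B, CCT7 (log2 fold change −0.95), EIF6 (−0.92) and POLI (0.84) were lost.

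**Figure D5:**
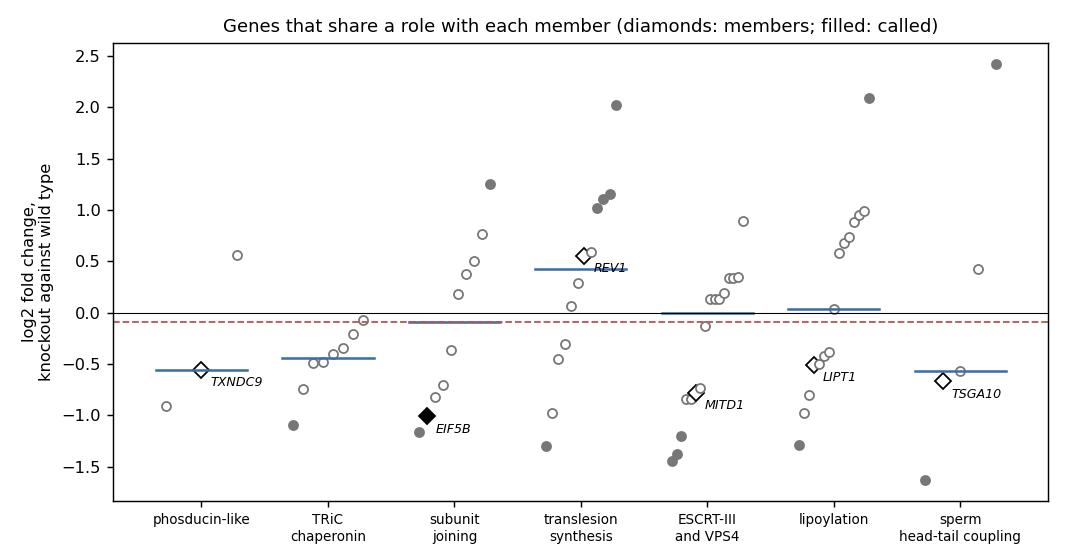
Log2 fold change of every tested gene in the lists built around the members' roles, with 1 column per list, diamonds for members, circles for other genes, filled where called, a blue line at the list's median and a red dashed line at the median of all tested genes. The lists spread on both sides of 0, from −1.63 (PMFBP1) to 2.43 (HOOK1), and the members lie within the spread of their own lists.

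The genes nearest to TXNDC9 in pattern were NOL9, ANAPC10, COQ2, FARS2 and UTP14A, by the Euclidean distance between the 4 log2(FPKM + 0.1) values after each gene's mean had been subtracted. The distances ran from 0.0337 to 0.0723 over the 4 libraries. Those nearest to EIF5B were MRPL27, ERGIC3, SCAMP3, COA3 and RPLP1, from 0.0410 to 0.0442. None of the 10 lies on chromosome 2. The share of all tested genes on that chromosome was not computed, so the count cannot be read as a result about position. Among the members themselves the smallest distance was that of TXNDC9 and LIPT1 (0.179) and the largest that of EIF5B and REV1 (1.69), while TXNDC9 and EIF5B, which start beside each other, were 0.587 apart. Over 4 libraries of 2 groups these distances describe how alike the values ran, and all genes share the same libraries.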

How the data were processed

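By their titles, the libraries were 2 of wild type and 2 of TXNDC9 knockout. Per the study's methods, polyadenylated RNA was sequenced on an Illumina instrument. The authors aligned reads against hg38 using TopHat2 and an Ensembl annotation, without searching for new junctions, and deposited FPKM per gene and library from Cuffdiff. Versions, library scaling and strandedness of the counting were not given in the sources used here. Replicates were not pooled. The deposited p-value and q-value columns and the authors' log2 fold change column hold the authors' own comparison and were not used. The 231916 lines held 57979 genes, whose identifiers were displaced: 1 line carried the identifier of its own gene. Identifiers were put back in order, and 56935 were in GENCODE release 44.

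After a filter at an average FPKM above 1, values of all 4 libraries were fitted as log2(FPKM + 0.1) in limma 3.58.1 (R 4.3.3), using a prior variance trend, no replicate block and Benjamini-Hochberg adjustment over 13246 genes. Because the values are not counts, no count model was used. Within-library ratios were compared by two-sided exact permutation. The log2 fold change is understated for low genes. The fit was tested on simulated data. With a trend with transcript length planted there, the uncorrected fit also called genes that had no planted change. After the length and GC correction none of them were called. The correction uses the same length as the planted trend, so that outcome was fixed in advance. It does not show whether the correction suits these data. The fit was repeated at pseudocounts of 1 and 0.01, without the filter, at an average above 5, an adjusted p under 0.05, in TPM, with median centring, without the trend, with a loess correction for length and GC content (span 0.3), with the replicate block, and without each library. Python 3.11.15, pandas 2.3.3, numpy 2.4.6 and matplotlib 3.10.9 were used.

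The members and lists were chosen with earlier results of these data known. Genes named are the 6 members, genes of the lists, the 5 genes nearest in pattern to TXNDC9 and to EIF5B, and, in the wider neighbourhood, each called gene and the most highly expressed one. LYG1, MRPL30 and PDCL3 were described for their position or family, after their values had been seen. 1 further marker list is not reported here.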

Additional observations from a re-analysis of the deposited data

How the results depend on the processing

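MITD1 kept its direction and stayed uncalled under all 15 alternatives, and of the 5 ratios between neighbours, TXNDC9 over EIF5B, LIPT1 over MITD1 and EIF5B over REV1 kept their direction under 7 alternatives each. MITD1 over MRPL30 turned from −0.53 to 0.21 with the length and GC correction. LIPT1 over TSGA10 turned from 0.16 to −0.22 without wild-type library 1 and to −0.10 without knockout library 2. The alternatives for EIF5B over REV1, LIPT1 over TSGA10 and MITD1 over MRPL30 were chosen after seeing the data. Rescaling to TPM turned TXNDC9 to 0.12 and LIPT1 to 0.16, called REV1 at 1.23, and left EIF5B at −0.33, not called. EIF5B also lost its call with a pseudocount of 1 (−0.99, under the fold threshold), with no filter on low values (−1.01, limma adjusted p = 0.0258) and with no trend (−1.01, adjusted p = 0.0151). The length and GC correction turned REV1 to −0.012 and called TSGA10 at −1.20, and the replicate block with that correction gave −0.012 and −1.20. The cause was not tested. A filter at an average above 5 FPKM left LIPT1 and TSGA10 untested.

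Genes called lower numbered 2021 as reported, 447 in TPM, 969 with the correction and 975 with the correction and the block. Genes called higher numbered 1885, 4380, 841 and 841, and 1220 with an average above 5 FPKM. Of the calls, 48.3% were higher as reported, 90.7% in TPM and 35.8% after median centring.

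Leaving out each library in turn, which leaves 1 library in a group and assumes that it varies like the other group's, gave log2 fold changes of −0.72 to −0.39 for TXNDC9, −1.29 to −0.73 for EIF5B, 0.37 to 0.73 for REV1, −0.90 to −0.67 for MITD1, −0.67 to −0.34 for LIPT1 and −0.89 to −0.45 for TSGA10. The ratio differences ran from 0.22 to 0.69 for TXNDC9 over EIF5B, from 0.15 to 0.41 for LIPT1 over MITD1, from −2.03 to −1.10 for EIF5B over REV1, from −0.55 to −0.51 for MITD1 over MRPL30 and from −0.22 to 0.55 for LIPT1 over TSGA10. Called genes ran from 0 to 2633 lower and from 0 to 2136 higher. Without knockout library 1 or 2, limma called 0 genes, with a smallest adjusted p of 0.0160 or 0.0232, and 7129 or 7307 genes had an unadjusted p under 0.05.

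Replicate numbers are shared between the groups, and the labels do not say whether they mark a pairing. Same-numbered libraries did not deviate together (correlation −0.0904), and the fit as reported used no block. With the replicate block the fold changes were the same (TXNDC9 −0.55), 2146 genes were called lower and 1960 higher, and no member's call changed (adjusted p = 0.00267 for TXNDC9, 1.74e-04 for EIF5B). Depth is unknown in FPKM, so no limit on low values can be given.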
